A study of Homo sapiens with 40 samples.

Results

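Small nucleolar RNAs (snoRNAs) and small Cajal body RNAs (scaRNAs) were described across the 40 deposited HEK293 libraries. The members are the gene rows named SNORD, SNORA or SCARNA with a number whose counts sum to at least 100 over all 40 libraries. Of 55765 rows, 410 carry such a name, 118 of them reached this minimum, and 207 had no read at all. The 118 comprise 48 of 275 SNORD rows, 54 of 112 SNORA rows and 16 of 23 SCARNA rows. The members were thus chosen by their summed counts, and the naming of SNORD17 used its level in the DDX6 immunoprecipitate, so those values are description and were not tested. Just inside the minimum were SCARNA5 with 100 reads, SNORD42B with 102 and SNORD91A with 106, and just outside were SNORA14A with 97, SNORD70 with 93 and SNORA12 with 91.

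HEK293 is an established human embryonic kidney cell line. In the RNA immunoprecipitation (RIP) experiment, cells without siRNA gave total RNA and RNA bound to endogenous eIF4A1, eIF4A2 or DDX6, with 3 libraries per group and no control immunoprecipitate analysed here. eIF4A1 and eIF4A2 are paralogous DEAD-box translation factors, and DDX6 is a DEAD-box helicase that binds the deadenylase complex Ccr4-Not. In the gradient experiment, cells received control siRNA or an siRNA that depletes CNOT1, the scaffold of Ccr4-Not, and 4 libraries each were made from input RNA, from pooled subpolysomal fractions 1 to 5 and from pooled polysomal fractions 6 to 11 of a sucrose gradient. A last experiment gave 2 total RNA libraries from control siRNA cells and 2 from cells that received siRNAs against both TNRC6A and TNRC6B, which bridge Argonaute and Ccr4-Not. Nuclei were spun out before the gradients, and all libraries were made with a kit that selects polyadenylated RNA.

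SnoRNAs with C and D boxes, the SNORD class, guide 2′-O-methylation of ribosomal RNA, whereas those with H and ACA boxes, the SNORA class, guide pseudouridylation. ScaRNAs carry the same boxes, reside in Cajal bodies and guide the same modifications on spliceosomal RNAs. Most human members of these classes are trimmed from introns of host genes, act in the nucleus and have no stable poly(A) tail. A read assigned to such a row can come from the mature RNA, from a tailed or extended precursor or from host RNA that spans the locus, and counts per row cannot tell these apart.

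Of the 118 members, 72 were placed at 1 locus of GRCh37, 42 at more than 1 and 4 at none (SCARNA10, SNORD3D, SNORD62A and SNORD62B). Among the 72, 50 lay wholly within introns of a multi-exon host, 11 wholly within an exon, 7 partly so, and 4 outside any such host. The ends of the single-locus members on which the results below turn are shown so that each row can be read as the RNA it names. Sequences are GRCh37 sense-strand DNA, 5′ to 3′, and each is 30 bases long. In the first 30 bases of C/D members the capitals mark a C-box-like NTGATGA, and in the last 30 they mark a D-box CTGA.
SNORD17, first bases, chr20:17943353-17943589 (−), in introns of SNX5 and OVOL2: gtgaaATGATGAttcagtttatccattcgc
SNORD17, last bases: cacaaagatgagtggtgaaaatCTGAtcac
SNORD125, first bases, chr22:29729152-29729247 (−), in an intron of AP1B1: acccctggcagcccctcCTGATGAttcttc
SNORD125, last bases: taagaagttgaCTGAaggggctgcttcccc
SNORD14A, first bases, chr11:17096201-17096291 (−), in an intron of RPS13: tcactATGATGAttggttgccagacattcg
SNORD14A, last bases: tggccagttcttccttggatgtCTGAgtga
SNORD12, first bases, chr20:47897220-47897309 (+), in an exon of ZFAS1: gcctttgcagCTGATGAtacagcttctttc
SNORD12, last bases: ctattggccagttttgtCTGAtgcattggc
SNORD100, first bases, chr6:133137941-133138016 (+), in an intron of RPS12: gctgtacATGATGAcaactggctccctcta
SNORD100, last bases: aaactgccatgtcacccttCTGAttacagc

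In the H/ACA members the capitals mark the last match to the ACA box, searched as ACA ending within 6 bases of the 3′ end. SNORA23 ends in overlapping ACA matches, and the capitals mark that with 1 base after it. Which of them is the box was not tested.
SNORA14B, last bases, chr1:235291118-235291252 (−), in an intron of TOMM20: gctcagtcttatttcatacctgcgACAtct
SNORA23, last bases, chr11:9450320-9450501 (+), in an intron of IPO7: actggccagcctccaaattcccacacACAg
SNORA13, last bases, chr5:111497182-111497314 (+), in an exon of EPB41L4A-AS1: tttggtgtaggagctgcataagtaACAgtt
SNORA45, last bases, chr11:8706986-8707116 (+), in an intron of RPL27A: cccccgttagtgcccagatcagaaACAtac

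All boxes were searched on the sense strand only, and rows of a single chromosome were left out. The search thus held 36 of 37 single-locus SNORD members and 188 of 189 SNORD rows under the count minimum. NTGATGA stood in the first 30 bases of 26 of 36 single-locus SNORD members (72.2%), against 137 of 188 SNORD rows under the count minimum (72.9%) and 163 of 224 over both (72.8%). CTGA stood in the last 30 bases of 31 of 36 members (86.1%) and of 206 of the 224 (92.0%). The ACA box was found in 24 of 26 single-locus SNORA members (92.3%) and in 49 of 56 SNORA rows in all (87.5%). A match is a description of these letters only. Members that reached the minimum were longer than rows that did not, with a median length of 132 against 82 nt over the 3 classes, while within the classes the medians were 85 against 82 nt for SNORD, 135 against 134.5 for SNORA and 270 against 139.5 for SCARNA.

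Libraries held 15.4 to 46.0 M counts (M, mega), of which the members took 103566 in all, or 0.0085%. Levels are CPM, the counts per M of the TMM-adjusted library total, set within each experiment, so levels are compared within an experiment only. CNOT1 CPM was 627 to 711 in control input and 36.8 to 41.4 after CNOT1 siRNA, and 235 to 317 against 73.4 to 89.5 in subpolysomal RNA. Polysomal replicate 3 of both siRNAs went against its label, with CNOT1 at 28.3 CPM in the library labelled control siRNA and 631 in the library labelled CNOT1 siRNA, so the polysomal results below are given with and without both. TNRC6A fell from 178 and 188 CPM to 40.5 and 64.7 in the libraries of its siRNA. The HEK293 markers NEFL, NEFM, LHX1 and INA stood at 1.97 CPM or more in all 40 libraries, whereas the markers of other cells (ALB, PTPRC, HBB, CD3E and KRT5) reached at most 0.40 CPM. The HEK293 marker PAX2 had reads in all 40 but stood at 0.0983 to 1.57 CPM (median 0.307), a range that overlaps those other markers. The labels do not state that replicates are separate cultures, so p-values measure the spread between these samples.

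The summed level of the 118 members differed most between gradient fractions. In RIP total RNA it was 91.1 ± 11.1 CPM (SD, n = 3), against 52.2 ± 8.99 in the eIF4A1 IP, 90.3 ± 21.0 in the eIF4A2 IP and 62.6 ± 8.68 in the DDX6 IP. With control siRNA it was 64.4 ± 1.83 CPM in input, 319.9 ± 37.8 in subpolysomal and 20.8 ± 3.63 in polysomal RNA (SD, n = 4). With CNOT1 siRNA the same sums were 41.5 ± 1.10, 186.8 ± 36.4 and 18.4 ± 6.06 CPM. Without polysomal replicate 3 the polysomal sums stood at 21.9 ± 3.52 CPM after control and 15.6 ± 3.28 after CNOT1 siRNA (SD, n = 3). The 4 subpolysomal sums lay between 269 and 356 CPM with control siRNA and between 137 and 223 with CNOT1 siRNA, so those groups did not overlap. In the TNRC6 experiment the sums were 43.9 and 81.5 CPM with control siRNA and 41.1 and 68.1 with TNRC6A/B siRNA. Without SNORD17 the RIP sums were 86.4, 33.4, 70 and 40 CPM in the same order as above.

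**Figure D1:**
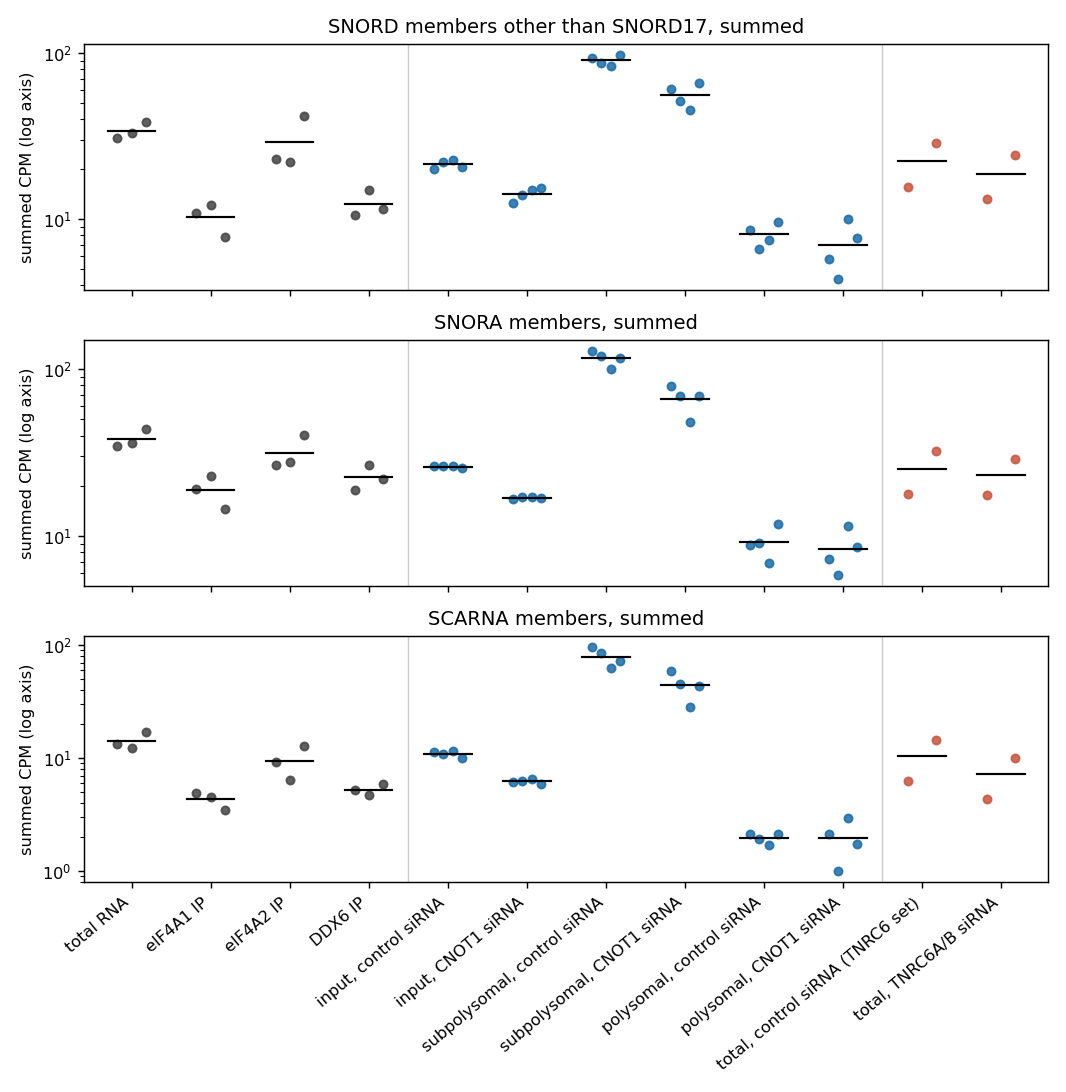
Summed CPM of the SNORD members other than SNORD17, of the SNORA members and of the SCARNA members (3 panels, log axes) in each library (points) of the 12 groups, with group means as horizontal lines. Within the gradient experiment, the control subpolysomal group has the highest mean and a polysomal group the lowest in all 3 panels.

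The level minimum leaned on some libraries. Within the gradient experiment, 107 of the 118 members had their highest group mean in control subpolysomal RNA and 10 in CNOT1 siRNA subpolysomal RNA. The minimum was reached only with the subpolysomal reads by 24 members, among them SCARNA7, SCARNA17 and SCARNA18, and only with the IP reads by 14, among them SCARNA23. Over members, the median share of reads that came from the 8 subpolysomal libraries was 39.4%. Values of such members in the comparisons that chose them are given below as descriptions with no test, although the counts called include such members. Left out after the data were seen, they changed few counts: in polysomal over subpolysomal RNA with control siRNA 68 of 69 other members tested were lower, in subpolysomal RNA over input 72 of 77 were higher, and in the eIF4A1, eIF4A2 and DDX6 IPs over total RNA 9, 8 and 8 were higher and 46, 10 and 45 lower. Several well-known RNAs of these classes were near or under the minimum in these libraries. SNORD118 (U8) had no read, SCARNA2 had 61, SNORD3A (U3) 177, SNORD13 (U13) 144, SNORA74A (U19) 304, SCARNA5 100 and SCARNA6 123 over all 40 libraries.

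SNORD17, a C/D box snoRNA of 237 nt in an intron of SNX5, was high in all 3 immunoprecipitates and not in the DDX6 IP alone. SNORD17 stood at 4.47, 5.35 and 4.34 CPM in total RNA. It stood at 20.0, 20.0 and 16.4 CPM in the eIF4A1 IP and at 21.0, 20.3 and 19.6 in the eIF4A2 IP. In the DDX6 IP it stood at 19.7, 25.4 and 22.5 CPM. Every IP library lay above every total RNA library, and the 3 IP groups overlapped one another. The log2 fold change over total RNA was 1.99 ± 0.15 (SE) for the eIF4A1 IP (edgeR quasi-likelihood test, Benjamini-Hochberg FDR 1.18e-06) and 2.10 ± 0.15 for the eIF4A2 IP (edgeR FDR 5.72e-07). It was 2.25 ± 0.15 for the DDX6 IP, 0.26 ± 0.14 for the DDX6 IP over the eIF4A1 IP and 0.15 ± 0.14 over the eIF4A2 IP, as descriptions without a test. Between the eIF4A2 and eIF4A1 IPs SNORD17 differed by 0.11 ± 0.14 and was not called (edgeR FDR 0.711).

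The share of all member CPM that SNORD17 took went from 4.2 to 6.2% in total RNA to 33.7 to 38.8% in the eIF4A1 IP, 17.2 to 26.5% in the eIF4A2 IP and 35.4 to 36.3% in the DDX6 IP. Its host SNX5, which encodes an endosomal sorting nexin, rose in the same libraries, from 175 ± 14.8 CPM in total RNA to 398 ± 52.7, 452 ± 63.3 and 454 ± 78.5 in the eIF4A1, eIF4A2 and DDX6 IPs (SD, n = 3). SNX5 log2 fold changes over total RNA were 1.18 ± 0.17, 1.36 ± 0.17 and 1.37 ± 0.17, each called by edgeR. The part of host RNA in the SNORD17 counts was not tested. The other host, OVOL2, stayed at group means of 0.13 to 0.44 CPM.

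In the gradient, SNORD17 followed the same order of fractions as most members. With control siRNA it stood at 6.22, 6.22, 5.98 and 5.98 CPM in input, at 38.9, 47.5, 22.1 and 29.5 in subpolysomal RNA and at 0.964, 1.61, 1.33 and 2.32 in polysomal RNA. The fractions did not overlap. Its log2 fold change was 2.51 ± 0.19 for subpolysomal over input (edgeR FDR 6.54e-07) and -4.53 ± 0.32 for polysomal over subpolysomal RNA (edgeR FDR 9.20e-07), or -4.42 ± 0.35 without polysomal replicate 3. After CNOT1 siRNA, SNORD17 stood at 4.90, 3.24, 3.68 and 4.29 CPM in input and at 24, 24.6, 14.6 and 18.3 in subpolysomal RNA. It fell in input by 0.59 ± 0.12 on the log2 scale (edgeR FDR 0.000626), with no overlap between the groups, but the call was lost when all 24 gradient libraries shared one fit (FDR 0.0745). In subpolysomal RNA it fell by 0.72 ± 0.22 with overlapping groups (edgeR FDR 0.0358), and the call was lost without control replicate 1, 2 or 4 or CNOT1 siRNA replicate 3 or 4, at FDRs of 0.0609 to 0.114. In the TNRC6 experiment SNORD17 stood at 4.24 and 5.81 CPM with control siRNA and at 5.96 and 4.89 with TNRC6A/B siRNA, a log2 difference of 0.12 ± 0.33 that was not called (edgeR FDR 1). With control siRNA, SNX5 stood at 173 ± 5.24 CPM in input, 679 ± 151 in subpolysomal and 122 ± 4.89 in polysomal RNA (SD, n = 4). SNX5 log2 fold changes were 1.98 ± 0.13 for subpolysomal over input and -2.54 ± 0.17 for polysomal over subpolysomal RNA, with replicate 3 kept. After CNOT1 siRNA they were -0.16 ± 0.05 in input and -0.68 ± 0.18 in subpolysomal RNA. Each of these changes was called by edgeR. The part of host RNA in these SNORD17 values was not tested.

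**Figure D2:**
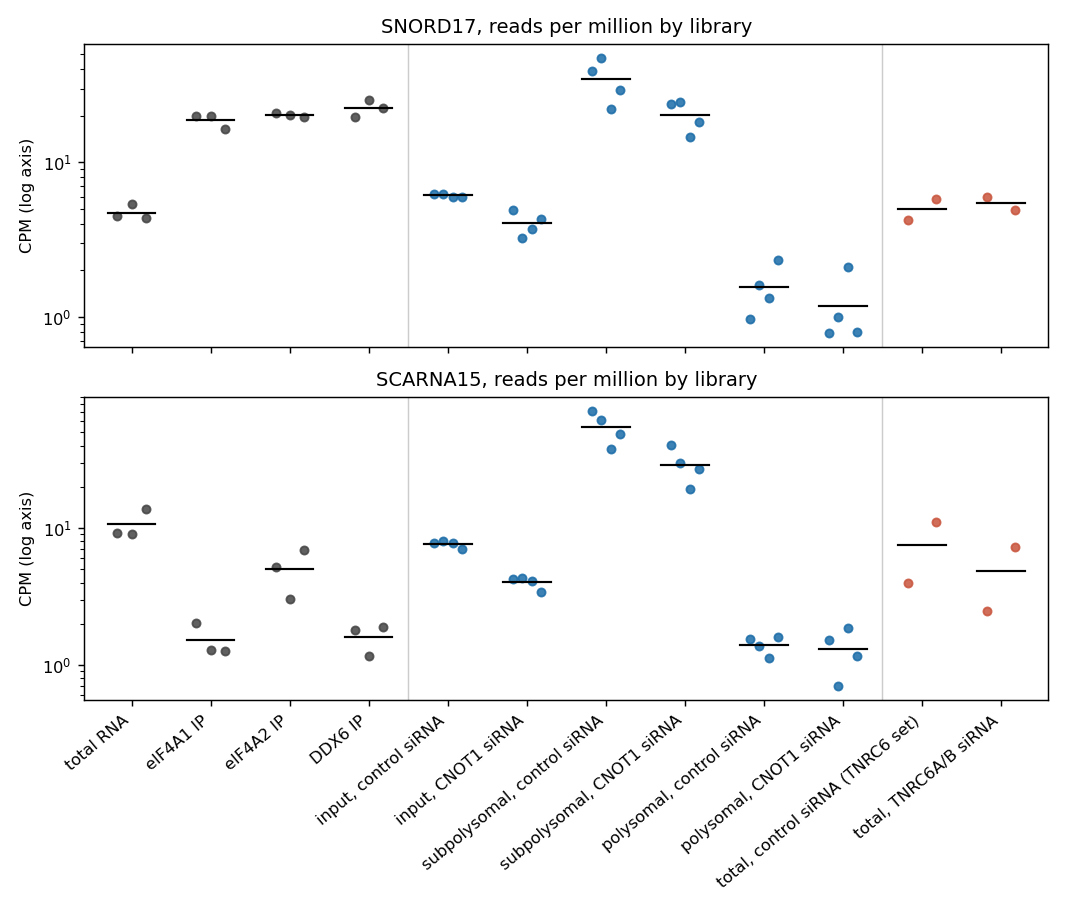
CPM of SNORD17 and SCARNA15 in each of the 40 libraries (points) of the 12 groups, with group means as horizontal lines, on log axes. SNORD17 is higher in the 3 IP groups (means of 18.8 to 22.5 CPM) than in RIP total RNA (4.72), whereas SCARNA15 is lower there.

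SCARNA15, an H/ACA scaRNA placed at 2 loci, had the next largest sum of reads and moved the other way in the IPs. SCARNA15 stood at 9.21, 9.11 and 13.7 CPM in total RNA, at 2.03, 1.29 and 1.26 in the eIF4A1 IP, at 5.16, 3.03 and 6.89 in the eIF4A2 IP and at 1.79, 1.17 and 1.88 in the DDX6 IP. All 9 IP libraries lay under the total RNA libraries, and the eIF4A2 IP libraries lay above those of both other IPs. The log2 fold changes over total RNA were -2.80 ± 0.32, -1.08 ± 0.29 and -2.72 ± 0.31 (edgeR FDR 1.39e-05, 0.00748 and 3.40e-05). The eIF4A2 IP exceeded the eIF4A1 IP by 1.72 ± 0.31 (edgeR FDR 0.0187), and the DDX6 IP was lower than the eIF4A2 IP by a log2 fold change of -1.64 ± 0.31 (edgeR FDR 0.00462). In input SCARNA15 stood at 7.72, 8.01, 7.84 and 7.02 CPM with control siRNA and at 4.23, 4.34, 4.13 and 3.42 with CNOT1 siRNA, without overlap, a log2 fold change of -0.91 ± 0.10 (edgeR FDR 2.05e-06).

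The first question was which of these RNAs were recovered with each DEAD-box protein. Most members were lower in the eIF4A1 and DDX6 IPs than in total RNA, and far fewer in the eIF4A2 IP, while a small set with SNORD17 was higher. All 3 comparisons share the 3 total RNA libraries. In the eIF4A1 IP, 75 of the 118 members had enough reads for the test, of which 46 were lower and 10 higher, where 26.5% and 26.1% of all 17474 rows tested were lower and higher. Their median log2 fold change was -1.96, against medians between -0.06 and 0.12 over all rows tested in the 13 comparisons. In the eIF4A2 IP 10 members were lower and 9 higher (25.8% and 24.5% of all rows), with a median of -0.10. In the DDX6 IP, SNORD17 aside, 45 of 74 were lower and 9 higher (23.3% and 22.7% of all rows), and the median over the 75 with SNORD17 was -1.57. The IP of eIF4A2 rested partly on replicate 3, in which members reached a summed 114.5 CPM while the lowest of the group was at 76.7. Without that library, 26 of 81 members tested were lower in the eIF4A2 IP and 6 higher. Of all rows, 25.8% and 24.5% were lower and higher in the fit of all libraries. With the replicate number as a block, which pairs the RIP libraries, 16 members were lower in the eIF4A2 IP and 11 higher, where 31.9% and 30.4% of all rows were lower and higher.

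The filter on low counts left 43 members untested, so the libraries of all 118 were also set side by side. Every eIF4A1 IP library stood below every total RNA library for 71 members and above for 11, against 28.1% and 27.4% of the 19366 rows that reach the same count minimum. In the eIF4A2 IP 18 members stood apart below and 10 above (28.5% and 26.5% of rows). In the DDX6 IP the same counts were 64 and 14, SNORD17 among the latter (28.1% and 27.3% of rows).

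By class, of the 34 SNORD members tested, 27 were lower and 4 higher in the eIF4A1 IP, against 17 and 3 of 34 SNORA members and 2 and 3 of 7 SCARNA members. In the DDX6 IP 27 of 33 SNORD members besides SNORD17 were lower and 3 higher, with 15 and 3 SNORA members and 3 and 3 SCARNA members. In the eIF4A2 IP, 4 SNORD, 5 SNORA and 1 SCARNA member were lower and 4, 3 and 2 were higher. The higher SCARNA counts include SCARNA23, which is a member only through its IP reads. Over all rows tested in the 3 IPs, 23.3 to 26.5% were lower and 22.7 to 26.1% higher.

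**Figure D3:**
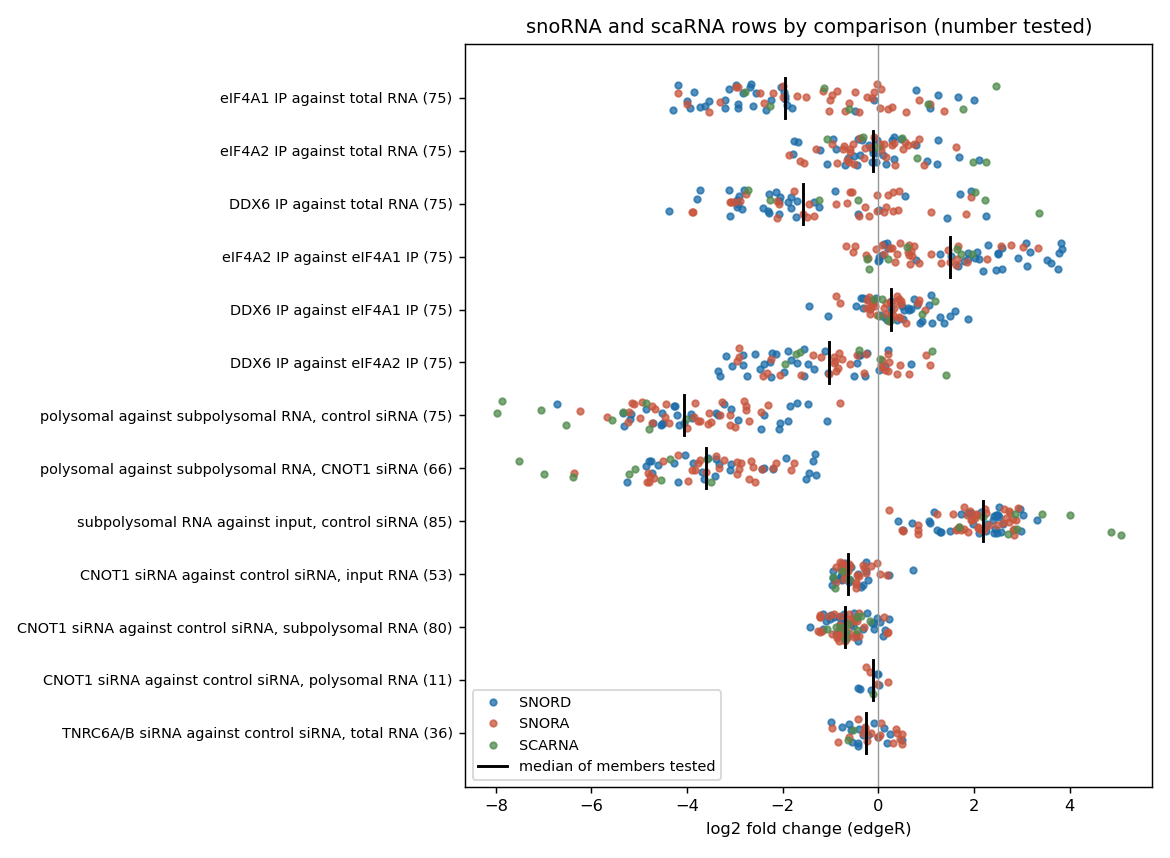
Log2 fold change (horizontal axis) of each tested member (points, coloured by class) in the 13 comparisons, with the median of the tested members as a black line. Medians are -1.96 in the eIF4A1 IP, -1.57 in the DDX6 IP, -0.10 in the eIF4A2 IP and -4.06 in polysomal over subpolysomal RNA with control siRNA, where fitted values of members without a polysomal read, at the far left, depend on the prior count.

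Among the members higher in the IPs, SNORD125, a C/D box snoRNA in an intron of AP1B1, stood at 1.10, 0.486 and 0.789 CPM in total RNA. SNORD125 stood at 2.16, 3.35 and 2.16 CPM in the eIF4A1 IP, 2.48, 2.85 and 2.43 in the eIF4A2 IP and 2.10, 3.5 and 2.28 in the DDX6 IP. Every IP library exceeded every total RNA library, with log2 fold changes of 1.67 ± 0.30, 1.69 ± 0.31 and 1.71 ± 0.30 (edgeR FDR 0.000499, 0.000517 and 0.000615).

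SNORA14B, an H/ACA snoRNA in an intron of TOMM20, stood at 0.868, 0.547 and 0.466 CPM in total RNA, at 1.48, 2.02 and 1.44 in the eIF4A1 IP, at 1.54, 2.51 and 1.81 in the eIF4A2 IP and at 1.67, 2.95 and 2.19 in the DDX6 IP. Again no IP library overlapped total RNA, and the log2 fold changes were 1.37 ± 0.31, 1.61 ± 0.31 and 1.82 ± 0.30 (edgeR FDR 0.00233, 0.000741 and 0.000388). SCARNA22 rose by 1.78 ± 0.32, 1.98 ± 0.32 and 2.02 ± 0.31 on the log2 scale (edgeR FDR 0.000452, 0.000209 and 0.000239), from 0.316, 0.213 and 0.179 CPM in total RNA to between 0.595 and 1.18 over the 9 IP libraries. SNORD67, SNORD62A and SNORA59B were also called higher in each IP.

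SCARNA23, which is a member only through its IP reads, had fitted log2 fold changes of 2.45 ± 0.69, 2.25 ± 0.73 and 3.36 ± 0.63, from a mean of only 0.040 CPM in total RNA, as a description with no test. Over the means of the 12 groups, the members whose log2(CPM + 0.5) pattern was most like that of SNORD17 were SNORA14B (Pearson r 0.974), SNORD125 (0.970) and SCARNA22 (0.955), as a description over 12 points that share library preparation. With each member centred within each experiment, a choice made after the data were seen, r was 0.989, 0.986 and 0.965. SNORA59B (0.977) then ranked above SCARNA22, and r was still 0.900 at rank 20 (SNORD13), so the likeness was not particular to these members.

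A pair of these RNAs was recovered at higher levels with DDX6 than with eIF4A2. SCARNA10, which guides snRNA modification, stood at 0.105, 0.304 and 0.108 CPM in total RNA, at 0.433, 0.343 and 0.297 in the eIF4A1 IP, at 0.369, 0.303 and 0.249 in the eIF4A2 IP and at 0.724, 0.844 and 0.875 in the DDX6 IP. The DDX6 IP libraries lay above all others, with log2 fold changes of 2.22 ± 0.36 over total RNA (edgeR FDR 0.000309) and 1.42 ± 0.32 over the eIF4A2 IP (edgeR FDR 0.00973). SNORA23, from an intron of IPO7, stood at 0.237, 0.273 and 0.359 CPM in total RNA, at 0.706, 0.687 and 0.421 in the eIF4A1 IP, at 0.570, 0.363 and 0.612 in the eIF4A2 IP and at 0.973, 1.29 and 1.05 in the DDX6 IP. SNORA23 was likewise highest in every DDX6 IP library, at 1.94 ± 0.30 over total RNA (edgeR FDR 0.000249) and 1.08 ± 0.27 over the eIF4A2 IP (edgeR FDR 0.0161), a call lost without DDX6 IP replicate 2 (FDR 0.0678).

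Several members fell steeply in the eIF4A1 and DDX6 IPs. SNORD12, in an exon of the noncoding host ZFAS1, stood at 1.39, 1.40 and 1.47 CPM in total RNA, at 0.0683, 0.0215 and 0.124 in the eIF4A1 IP, at 0.235, 0.363 and 1.13 in the eIF4A2 IP and at 0.0905, 0.0992 and 0.109 in the DDX6 IP. All IP libraries were lower than total RNA, and the third eIF4A2 IP library came closest. SNORD12 log2 fold changes were -4.30 ± 0.57, -1.22 and -3.79 ± 0.54 (edgeR FDR 4.62e-05, 0.0274 and 0.000123).

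SNORD100, in an intron of the ribosomal protein gene RPS12, stood at 0.684, 1.49 and 1.40 CPM in total RNA, at 0.0683, 0.0644 and 0.0496 in the eIF4A1 IP, at 0.436, 0.545 and 1.54 in the eIF4A2 IP and at 0.113, 0.124 and 0.219 in the DDX6 IP. Total RNA overlapped the eIF4A2 IP and neither of the others. SNORD100 log2 fold changes were -4.20 ± 0.60 and -2.92 in the eIF4A1 and DDX6 IPs (edgeR FDR 8.41e-05 and 0.000598) and -0.43 in the eIF4A2 IP, which was not called (edgeR FDR 0.413).

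SNORA66, an H/ACA snoRNA placed at 2 loci, stood at 4.00, 4.35 and 6.39 CPM in total RNA, at 0.319, 0.365 and 0.223 in the eIF4A1 IP, at 1.64, 1.76 and 3.97 in the eIF4A2 IP and at 0.475, 0.273 and 0.241 in the DDX6 IP. Here the eIF4A2 IP lay between total RNA and the other IPs without overlap. SNORA66 log2 fold changes were -3.99 ± 0.40, -0.97 and -3.88 ± 0.39 (edgeR FDR 5.43e-06, 0.0227 and 1.69e-05). SNORA81 fell by 4.20 ± 0.54 on the log2 scale in the eIF4A1 IP (edgeR FDR 3.47e-05), and SNORD1B by 4.39 ± 0.67 in the DDX6 IP (edgeR FDR 0.000217). In the eIF4A2 IP the largest decreases were in SNORA73B (U17), at -1.88 ± 0.35 (edgeR FDR 0.000648), SNORD88A, at -1.78 ± 0.44 (edgeR FDR 0.00426), and SNORD7, at -1.76 ± 0.54 (edgeR FDR 0.0158). The SNORD7 call was lost without eIF4A2 IP replicate 2 (FDR 0.0608).

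Some members with ample reads were not called in any IP. SNORA11, an H/ACA snoRNA placed at 6 loci, stood between 1.26 and 2.37 CPM in total RNA and between 1.54 and 2.85 over the 9 IP libraries, with log2 differences of 0.04, 0.11 and 0.30. SNORA76 differed by 0.28, 0.03 and 0.11. The members called higher in the eIF4A1 IP were also longer than those called lower, with median lengths of 135 nt over 7 placed members and 91 nt over 29, while the 10 placed members that were not called had a median of 136 nt. The part of length in these values was not tested.

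Tested directly, these RNAs took a larger share of reads in the eIF4A2 IP than in the eIF4A1 IP. Of 75 members, 23 were higher in the eIF4A2 IP (17 SNORD, 4 SNORA and 2 SCARNA) and 0 lower, where 0.973% and 0.0858% of all rows were higher and lower, and the median log2 difference over members was 1.49. Over all 118, every eIF4A2 IP library stood above every eIF4A1 IP library for 55 members and below for 2, against 10.1% and 8.26% of rows. SNORD14A, in an intron of RPS13, stood at 1.5, 1.98 and 2.19 CPM in total RNA, 0.228, 0.0215 and 0.0992 in the eIF4A1 IP, 0.805, 0.727 and 2.65 in the eIF4A2 IP and 0.113, 0.124 and 0.175 in the DDX6 IP. SNORD14A was higher in each eIF4A2 IP library than in any library of the other IPs, by 3.61 over the eIF4A1 IP on the log2 scale (edgeR FDR 0.0126).

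SNORA33, an H/ACA snoRNA placed at 4 loci, stood at 2.97, 2.22 and 3.77 CPM in total RNA, at 0.341, 0.322 and 0.223 in the eIF4A1 IP, at 2.25, 2.88 and 3.90 in the eIF4A2 IP and at 0.204, 0.447 and 0.547 in the DDX6 IP. The eIF4A2 IP and total RNA overlapped for SNORA33, and the other IPs lay under both. Its log2 difference between the eIF4A2 and eIF4A1 IPs was 3.33 ± 0.35 (edgeR FDR 0.00205). SNORD38A, at 3.85 ± 0.57 (edgeR FDR 0.00658), SNORD83A, at 3.81 ± 0.64 (edgeR FDR 0.0125), and SNORD100, at 3.77 ± 0.62 (edgeR FDR 0.0113), had the largest differences. The calls of SNORD83A and SNORD100 were lost without eIF4A1 IP replicate 2 or 3, at FDRs of 0.0595 to 0.0743.

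The count of 23 depended on the libraries. It was 13 without eIF4A1 IP replicate 2, 10 without eIF4A1 IP replicate 3, 13 without eIF4A2 IP replicate 3, and 7 when only the 6 libraries of these IPs were fitted. With the replicate number as a block it was 37, with 8.70% of all rows called lower and 7.12% higher.

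The DDX6 and eIF4A1 IPs were then compared with each other, where the median log2 difference over members was 0.26. With SNORD17 left aside, edgeR called 0 of 74 higher and 0 lower with DDX6, where 0.0801% and 0.0114% of all rows were higher and lower, and DESeq2 also called 0. At an unadjusted p under 0.05, 7 were higher and 0 lower, where 7.67% and 6.28% of all rows were. With the replicate block, SCARNA10 and SNORA23 were called higher, where 6.08% of all rows were higher and 3.82% lower. Over all 118 members, 25 had every DDX6 IP library above every eIF4A1 IP library and 2 the reverse, against 8.7% and 8.41% of rows. Against the eIF4A2 IP, 35 members were lower with DDX6 and 2 (SCARNA10 and SNORA23) higher, where 9.82% and 11.3% of all rows were lower and higher, with a median of -1.04. Over all 118 members 49 stood apart below and 6 above (18.4% and 19% of rows). The lower members were 22 SNORD, 10 SNORA and 3 SCARNA, led by SNORD14A at -3.35 ± 0.59 (edgeR FDR 0.00357), SNORD1B at -3.32 ± 0.76 (edgeR FDR 0.0100) and SNORD83A at -3.19 ± 0.60 (edgeR FDR 0.00433).

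The second question was in which gradient pool these RNAs took the larger share of reads. Their CPM was highest in the subpolysomal pool, which holds free RNPs, ribosomal subunits and monosomes, and lowest in polysomal RNA. CPM is a share of the reads of each pool, so the amount of an RNA in a pool was not measured. In polysomal over subpolysomal RNA with control siRNA, 74 of 75 members tested were lower and 0 higher, where 34.9% and 30.3% of all rows were lower and higher, and the median log2 fold change was -4.06. SNORA9 was the one not called, at -0.80 ± 0.41. With CNOT1 siRNA all 66 tested were lower (34.0% of all rows lower, 32.4% higher), with a median of -3.60. Without polysomal replicate 3, 78 of 81 and 77 of 77 tested members were lower, with medians of -3.94 and -3.66. In these fits 36.8% and 36.3% of all rows were lower and 31.0% and 34.5% higher. Over all 118 members in all libraries, every polysomal library stood below every subpolysomal one for 105 with control siRNA and for 97 with CNOT1 siRNA, against 29.1% and 27.6% of rows, and above for 0, against 24.1% and 24.8%. Without polysomal replicate 3, 106 and 102 members stood below, against 33.3% and 32.4% of rows, and 0 above, against 27% and 30.2%. In subpolysomal RNA over input, 80 of 85 members were higher and 0 lower, where 39.0% and 32.5% of all rows were higher and lower, with a median of 2.19. Over all 118, 87 stood apart above and 0 below (31.5% and 26.2% of rows). SNORA9, SNORA2, SNORD94, SNORD89 and SNORA47 were not called there.

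Some scaRNAs had few or no polysomal reads. SCARNA7 stood at 0.968, 1.81, 1.52 and 1.21 CPM in control subpolysomal RNA and had 0 reads in all 8 polysomal libraries of both siRNAs. Against a floor of 3 reads over the 4 control polysomal libraries, SCARNA7 was at least 44-fold lower there, and with CNOT1 siRNA at least 19-fold lower. SCARNA18, also at 0 in all 8, was at least 40.9-fold and 28.2-fold lower. The medians above were the same with both set at these bounds.

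SCARNA17 had 1 read in the 4 polysomal libraries of each siRNA and stood at 1.12, 1.63, 3.03 and 2.36 CPM in control subpolysomal RNA. SNORD60, a C/D box snoRNA, stood at 5.38, 6.13, 5.06 and 6.53 CPM in control subpolysomal RNA and at 0.0386, 0.0461, 0.0402 and 0.0859 in polysomal RNA, a log2 fold change of -6.71 ± 0.32 (edgeR FDR 1.82e-07). The SCARNA13 fold change was -6.54 ± 0.36 (edgeR FDR 2.89e-07). Without polysomal replicate 3 these were -6.56 for SNORD60 and -6.47 for SCARNA13. Over input, the subpolysomal log2 fold change was 4.01 ± 0.28 for SCARNA9 (edgeR FDR 3.15e-07) and, as descriptions with no test, 5.08 ± 0.45 for SCARNA7 and 4.86 ± 0.56 for SCARNA17. SCARNA9 stood at 0.429, 0.209, 0.282 and 0.310 CPM in input and at 3.83, 4.08, 6.35 and 5.57 in subpolysomal RNA.

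The third question was whether depletion of CNOT1 changed their levels. Many members fell, in input and in subpolysomal RNA, and in bulk libraries fewer cells that carry an RNA and less of it per cell cannot be told apart. In input, 27 of 53 members tested were lower after CNOT1 siRNA and 1 was higher, where 30% and 30.9% of all 15686 rows tested were lower and higher, and the median log2 fold change was -0.64. The lower members were 14 of 23 SNORD, 11 of 26 SNORA and 2 of 4 SCARNA. With all 24 gradient libraries in one fit, 16 of the 28 calls in input were kept and 3 added. Over all 118 members, 30 stood apart below and 1 above (22.7% and 22.4% of rows), and 30 of 118 is near the share of rows below.

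SNORD15B, a C/D box snoRNA, stood at 1.13, 1.23, 1.13 and 0.846 CPM in control input and at 0.605, 0.437, 0.575 and 0.555 after CNOT1 siRNA. The groups did not overlap, and SNORD15B fell by 0.98 ± 0.20 on the log2 scale (edgeR FDR 0.000599). SNORD12 stood at 1.07, 1.2, 1.04 and 1.13 CPM in control input and at 0.333, 0.540, 0.523 and 0.820 after CNOT1 siRNA, a fall of 0.96 ± 0.23 (edgeR FDR 0.00205). SCARNA13 stood at 1.23, 1.17, 0.931 and 0.959 against 0.453, 0.668, 0.418 and 0.627 CPM, a fall of 0.95 ± 0.21 (edgeR FDR 0.00112). In all 3 the groups stood apart.

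SNORD3D, a copy of U3, was the 1 member called higher in input, at 0.306, 0.209, 0.282 and 0.226 against 0.333, 0.411, 0.418 and 0.506 CPM. Its log2 fold change was 0.73 ± 0.27 (edgeR FDR 0.0310), and DESeq2 gave FDR 0.139. The SNORD3D call was also lost without control replicate 2 or 4 or CNOT1 siRNA replicate 2, 3 or 4, at FDRs of 0.0506 to 0.0933. SNORD3D belongs to a near-identical family, and how reads were split among its copies was not tested.

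In subpolysomal RNA, 31 of 80 members tested were lower after CNOT1 siRNA and 0 higher, where 15.2% and 12.6% of all rows were lower and higher, with a median of -0.69. The lower members were 14 of 33 SNORD, 14 of 37 SNORA and 3 of 10 SCARNA. Over all 118, 35 stood apart below and 1 above (14.3% and 10.4% of rows). The count was 15 without control replicate 1, 20 without control replicate 4 and 19 without CNOT1 siRNA replicate 2. With the replicate number as a block, which pairs these libraries, it was 49, where 31.2% of all rows were lower and 27.0% higher.

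SNORD93, a C/D box snoRNA, stood at 1.70, 1.32, 0.843 and 1.15 CPM in control subpolysomal RNA and at 0.599, 0.361, 0.453 and 0.405 after CNOT1 siRNA. The groups were apart, and the fall was 1.42 ± 0.28 on the log2 scale (edgeR FDR 0.00497). SNORA66 stood at 10.4, 8.03, 9.38 and 8.29 against 4.16, 3.74, 3.32 and 3.95 CPM, a fall of 1.22 ± 0.15 (edgeR FDR 0.000886), again without overlap. SNORA5A fell by 1.25 ± 0.28 (edgeR FDR 0.00845) and SNORA74A by 1.22 ± 0.23 (edgeR FDR 0.00408). SNORA51 fell by 1.23 ± 0.38 (edgeR FDR 0.0349), a call lost without control replicate 4 (FDR 0.0672) or CNOT1 siRNA replicate 3 (FDR 0.0561) and in DESeq2 (FDR 0.0800).

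In polysomal RNA only 11 members had enough reads for the test, and edgeR called 0 of them and 0.0% of all rows in either direction. DESeq2 also called 0, and 0 passed an unadjusted p under 0.05. Over all 118 members 1 stood apart below and 2 above (0.449% and 0.361% of rows). Without replicate 3 of both siRNAs, whose CNOT1 level went against the label, 18.9% of all rows were lower and 21.8% higher. SNORD17 was then the 1 of 10 members called, at -0.92 ± 0.33 (edgeR FDR 0.0497).

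After TNRC6A/B siRNA edgeR called 0 of 36 members tested and 0.0% of all rows in either direction, DESeq2 also called 0, and 0 passed an unadjusted p under 0.05. With the replicate number as a block, edgeR again called 0 of 36 members, where 3.7% of all rows were higher and 1.73% lower. The member median was -0.26. Over all 118 members 11 stood apart below and 10 above, against 16.1% and 9.73% of rows, and summed levels ranged from 41.1 to 81.5 CPM over the 4 libraries.

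Because most members lie in other genes, their changes were set beside those of the host. A host was used where exactly 1 multi-exon gene that is no member held the locus on the same strand, which applied to 64 members. Across the 37 members with a tested host in the eIF4A1 IP, from 32 hosts, the member and host log2 fold changes over total RNA had Pearson r -0.12, with medians of -1.90 for members and -0.40 for hosts. In the eIF4A2 IP r was -0.25 and the medians were -0.08 and -0.65. In the DDX6 IP r was -0.42, with medians of -1.69 and -0.01. Members from 1 host share reads and libraries, so these correlations are across genes and carry no test.

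In polysomal over subpolysomal RNA with control siRNA, r was 0.22 over 34 members from 28 hosts, with medians of -3.82 for members and -1.48 for hosts. Without polysomal replicate 3, r was 0.15 over 35 members.

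Members and hosts had the same sign in 20 of the 37 pairs in the eIF4A1 IP, 15 of 37 in the eIF4A2 IP and 14 of 37 in the DDX6 IP. Among pairs of opposite sign in the eIF4A1 IP, picked after their values were seen, SNORD1B was at -2.94 and its host SNHG16 at 1.54, SNORD12 at -4.30 and ZFAS1 at 0.82, and SNORA13 at -2.94 and EPB41L4A-AS1 at 1.13. In the other direction, SNORA23 was at 1.08 and IPO7 at -1.0, SCARNA23 at 2.45 and POLA1 at -1.21, and SNORD125 at 1.67 and AP1B1 at -0.66.

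Members were grouped by kind of host. Of the 9 tested members in introns or exons of ribosomal protein genes, 8 were lower in the eIF4A1 IP (median log2 fold change -2.83), 0 in the eIF4A2 IP (-0.13) and 8 in the DDX6 IP (-2.77). Of 13 with noncoding hosts, 12 were lower in the eIF4A1 IP (median -2.47), 4 in the eIF4A2 IP (-0.62) and 12 in the DDX6 IP (-2.29). Of 22 with other protein-coding hosts, 8 were lower and 6 higher in the eIF4A1 IP (median -0.42), 0 and 6 in the eIF4A2 IP (0.32) and 8 and 6 in the DDX6 IP (-0.42). The 6 higher in each IP include SCARNA23, a member only through its IP reads. Over all rows tested, 26.5% were lower and 26.1% higher in the eIF4A1 IP, 25.8% and 24.5% in the eIF4A2 IP and 23.3% and 22.7% in the DDX6 IP, and 6 of 22 is near that share.

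After CNOT1 siRNA, the member and host changes in input were set side by side in the same way. Over 27 members from 23 hosts, Pearson r was 0.58 and Spearman rho 0.59, 23 had the same sign, and the medians were -0.64 for members and -0.49 for hosts. Some pairs are given, picked after their values were seen. SNORD12 was at -0.96 and ZFAS1 at -1.0, SCARNA13 at -0.95 and SNHG10 at -1.18, and SNORD100 at -0.79 and RPS12 at -0.78. SNORD12 and SCARNA13 lie wholly within exons of these hosts, and the part of host RNA in their counts was not tested. Of members in ribosomal protein genes 7 of 8 were lower (median -0.75), of those with noncoding hosts 6 of 10 (-0.64), and of those with other protein-coding hosts 2 of 11 (-0.43), where 30% of all rows were lower. In subpolysomal RNA r was 0.30 over 37 members from 30 hosts, with medians of -0.63 and -0.61.

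**Figure D4:**
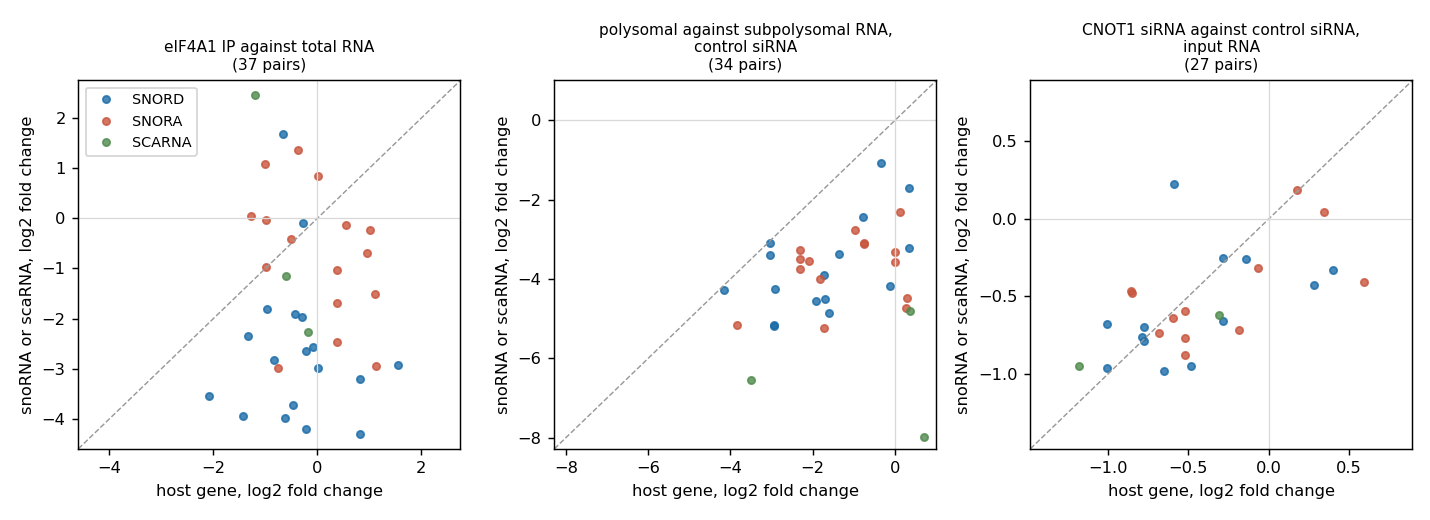
Log2 fold change of each member (vertical axis) against that of its single host gene (horizontal axis), coloured by class, with a dashed line of equal change, in 3 panels with axes of their own: the eIF4A1 IP over total RNA, polysomal over subpolysomal RNA with control siRNA, and CNOT1 siRNA over control siRNA in input. Pearson r is -0.12, 0.22 and 0.58 in the same order.

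The mRNAs of the proteins that package these RNAs were measured in the same libraries. Of the 4 box C/D core proteins, 2 fell in the eIF4A1 IP and 2 in the eIF4A2 IP, and 1 rose and 2 fell in the DDX6 IP. FBL, the fibrillarin methyltransferase, was at -1.68 ± 0.20, -2.03 and -0.81 over total RNA (edgeR FDR 2.04e-05, 4.73e-06 and 0.00437). Of the 4 box H/ACA core proteins, 2, 3 and 2 fell in the same IPs and 0, 0 and 1 rose, with DKC1, the pseudouridine synthase dyskerin, at -0.97, -0.86 and -0.69. Of 16 assembly and processing factors, 14, 15 and 13 fell and 0 rose. After CNOT1 siRNA in input, 2 of the C/D core fell, 1 of the H/ACA core rose and 2 fell, and 7 assembly factors rose and 3 fell. Over all rows 30.9% rose and 30% fell in that comparison, and in the 3 IPs 22.7 to 26.1% rose and 23.3 to 26.5% fell.

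Other RNAs that share a property with the members were set beside them. Of 8 other small RNAs without a poly(A) tail, 5 were tested in the gradient, and 5 of 5 were lower in polysomal than in subpolysomal RNA (median log2 fold change -7.45) and 5 of 5 higher in subpolysomal RNA than in input (3.21). In the eIF4A1 IP 2 of 3 tested were lower, with RN7SK at -3.79. In input after CNOT1 siRNA, 0 of 5 were called (median 0.17), where the members' median was -0.64. In subpolysomal RNA after CNOT1 siRNA, 1 of 5 was lower and 0 higher (median -1.24), where the members' median was -0.69. Of 4 nuclear long RNAs, 3 were lower in each IP and 1 higher in the eIF4A2 IP, 3 were lower in polysomal than in subpolysomal RNA and 3 were higher in subpolysomal RNA than in input. MALAT1 was at 2.98 ± 0.13 in subpolysomal RNA over input, at -3.97 ± 0.20 in polysomal over subpolysomal RNA, at -2.13 in the eIF4A1 IP and at -0.47 in input after CNOT1 siRNA, where 4 of the 4 nuclear long RNAs fell. These RNAs moved with the members in the gradient, and the part of nuclear RNA in the member values was not tested.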

How the data were processed

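RNA of HEK293 cells was sequenced in 40 libraries of 12 groups. The deposited files hold counts, 1 whole number per gene symbol and library. Per the labels and the study's methods, the authors made these counts from stranded poly(A)-selected libraries. The submitters' processing notes name bcl2fastq 2.0, TopHat2, HTSeq and hg19, and the strand option is not given in the sources used here. A further deposited table holds the authors' own IP comparisons and was not used.

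Groups came from the labels. Counts were tested with edgeR 4.0.16 in R 4.3.3 (TMM, filterByExpr, quasi-likelihood F-test on group means, two-sided, FDR by Benjamini-Hochberg over all rows tested, called under 0.05). One fit held the 12 RIP libraries, each gradient comparison the 8 libraries of its groups, and the TNRC6 comparison its 4. SE is the log2 fold change over the root of F. The code was tested on simulated data. Alternatives were DESeq2 1.42.0 with its size factors, no filter, another scaling, other library sets, the replicate block and leaving out each library. Loci came from GENCODE 44 on GRCh37, the build of hg19. Counting error only is covered by depth, since reads carry no molecular identifiers.

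Replicate numbers paired the samples where the deviations of every same-numbered pair correlated above 0.1, over 3 or more pairs. This applied to the 6 RIP comparisons and to CNOT1 siRNA in input (0.207 to 0.381) and subpolysomal RNA (0.610 to 0.756).

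Named were SNORD17, the 10 members with the highest mean CPM, the 3 largest called increases and decreases per comparison, classical examples and single exceptions, and lists of snoRNP proteins (C/D core, H/ACA core, assembly), other small RNAs and nuclear long RNAs. Of the 10, SNORD4A and SNORD104 were not described above. Host pairs, SNORA13, and members given for lost calls were chosen after their values were seen. Members and lists were chosen with earlier results of these data known.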

Additional observations from a re-analysis of the deposited data

Results flagged for a closer look

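Of 102 combinations of a member and a group of 4 libraries in which every library held at least 10 counts, 5 had 1 library farther from the others than Dixon's 95% limit allows. Chance alone flags about 1 in 20 groups. SNORD14A stood at 9.14 CPM in control subpolysomal replicate 4, against 8.17 to 8.21 in the others. SCARNA18 stood at 1.57 CPM in control subpolysomal replicate 3, against 1.16 to 1.21. SNORA5A stood at 1.12 CPM in the same library, against 0.953 to 0.968. SNORA74A stood at 0.459 CPM in CNOT1 siRNA subpolysomal replicate 2, against 0.655 to 0.693. SNORD17 stood at 2.09 CPM in polysomal replicate 3 labelled CNOT1 siRNA, against 0.784 to 1.00, and this is a library whose CNOT1 level went against its label. A further 126 combinations were not examined because a library held under 10 counts of the member.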

How the results depend on the processing

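No log2 fold change named in a comparison reversed under another setting, but SNORA73B, called in neither, went from 0.21 to -0.19 for CNOT1 siRNA in polysomal RNA without replicate 3 of both siRNAs. Of the recomputed counts of called members, 142 stayed within 1.5 times the reported count and 13 did not. For the eIF4A2 IP over the eIF4A1 IP (23 members called), the count was 41 without the filter on low counts, 7 with only the libraries compared, and 10 to 26 with 1 library left out. For the eIF4A2 IP over total RNA it was 16 to 32 with 1 library left out. For CNOT1 siRNA in subpolysomal RNA (31 called) it was 15 to 30, and in polysomal RNA it was 1 in place of 0 without replicate 3 of both siRNAs. With 1 library left out, the count was 23 to 28 for CNOT1 siRNA in input, 28 to 40 for the DDX6 over the eIF4A2 IP, 47 to 56 for the DDX6 IP and 51 to 60 for the eIF4A1 IP over total RNA. For CNOT1 siRNA in input, one fit of all 24 gradient libraries kept 16 of the 28 calls and added 3. DESeq2 kept 21 of them and added 0. The cause of these shifts was not tested. With the replicate number as a block, the count was 37 for the eIF4A2 over the eIF4A1 IP, 2 in place of 0 for the DDX6 over the eIF4A1 IP, and 49 for CNOT1 siRNA in subpolysomal RNA. For the eIF4A2 IP over total RNA it was 27 in place of 19, with 16 lower in place of 10. No other total moved by over 1.5 times under the block. Leaving out members that reach the minimum only with the compared libraries, an alternative chosen after seeing the data, moved none of 10 further counts by over 1.5 times. In the polysomal comparisons and the subpolysomal to input comparison the samples shared only a number. Same-numbered libraries of the TNRC6 experiment deviated together (r 0.862), but its 2 pairs were under the 3 required to take samples as paired. Low counts limited the test in polysomal RNA, where 11 members were tested.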
